A study of Homo sapiens with 3 samples.

Results

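NF-kB is a family of dimeric transcription factors, and several of its own subunits and inhibitors are among the genes it switches on. The genes described here are the 5 subunit genes NFKB1, NFKB2, REL, RELA and RELB, and the feedback genes TNFAIP3, NFKBIA, NFKBIE, NFKBIZ and BIRC3. Members were the probe sets whose only gene symbol in the platform annotation was one of these names. This gave 19 probe sets for 9 of the 10 genes, out of 54675 probe sets on the array and 19775 genes with a symbol. No probe set was named for BIRC3, which encodes an inhibitor of apoptosis protein, and it was not analysed here. The genes were chosen from their differences between these 3 arrays, in all 3 pairings, so all values below are a description.

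The cells were of the line SKBR3, from a human breast cancer with amplified ERBB2, known for lacking oestrogen receptor α. For 4 h they were kept in 10% charcoal-stripped serum (poor in steroid hormones), and they were then treated for 3 h. Treatments were 1 µM estradiol, 1 µM ERα17p (a peptide with a sequence from oestrogen receptor α) or 0.1% ethanol as vehicle. Each condition had 1 whole-genome array, so no difference has an error, a p-value or a replicate check, and precision is limited by the number of arrays. The labels do not say what the peptide was dissolved in. The comparisons ask how early genes differ with estradiol, with the peptide, and between them.

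In resting cells NF-kB dimers are held in the cytoplasm by IkB proteins. A stimulus such as TNF activates the IkB kinases, IkB is degraded, and the freed dimers enter the nucleus. There they switch on genes of inflammation and survival, and also genes that end the signal: new IkB is made, and the ubiquitin-editing enzyme A20, the product of TNFAIP3, shuts off the steps above the kinases.

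Promoters are shown first because NF-kB acts through short DNA elements close to the start of such genes. Sequences are from RefSeq on build GRCh38.p14. They run 5′ to 3′ on the gene's strand, from 250 bases before to 50 bases after an annotated start. Capitals mark matches, on either strand, to the 10-base NF-kB consensus. The genes shown were lower by at least 1.5-fold with both treatments, with RELA as a contrast, and NFKBIZ is shown at both of its starts.
NFKB1, chr4:102501109-102501408, strand +: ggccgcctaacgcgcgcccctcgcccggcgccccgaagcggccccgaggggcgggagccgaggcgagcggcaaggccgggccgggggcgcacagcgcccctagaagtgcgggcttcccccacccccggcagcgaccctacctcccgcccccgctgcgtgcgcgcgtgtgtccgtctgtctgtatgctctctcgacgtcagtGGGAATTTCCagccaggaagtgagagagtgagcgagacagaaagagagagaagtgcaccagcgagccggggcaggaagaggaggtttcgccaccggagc
REL, chr2:60881324-60881623, strand +: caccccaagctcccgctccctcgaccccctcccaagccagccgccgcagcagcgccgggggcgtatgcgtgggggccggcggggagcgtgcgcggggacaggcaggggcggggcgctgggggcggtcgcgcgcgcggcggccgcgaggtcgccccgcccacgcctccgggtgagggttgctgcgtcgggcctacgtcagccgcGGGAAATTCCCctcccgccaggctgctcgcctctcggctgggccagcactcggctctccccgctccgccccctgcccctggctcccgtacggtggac
RELA, chr11:65663808-65664107, strand -: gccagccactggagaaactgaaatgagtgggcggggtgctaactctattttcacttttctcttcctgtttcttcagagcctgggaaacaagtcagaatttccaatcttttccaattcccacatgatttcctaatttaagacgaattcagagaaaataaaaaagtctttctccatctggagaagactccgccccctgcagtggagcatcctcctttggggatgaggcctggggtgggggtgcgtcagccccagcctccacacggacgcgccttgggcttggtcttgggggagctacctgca
TNFAIP3, chr6:137867009-137867308, strand +: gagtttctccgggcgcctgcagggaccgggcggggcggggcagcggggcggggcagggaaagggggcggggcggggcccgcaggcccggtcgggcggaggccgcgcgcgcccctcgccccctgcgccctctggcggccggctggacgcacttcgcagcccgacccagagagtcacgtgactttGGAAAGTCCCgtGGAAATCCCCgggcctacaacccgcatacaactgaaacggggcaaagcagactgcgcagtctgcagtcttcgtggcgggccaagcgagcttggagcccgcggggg
NFKBIA, chr14:35404700-35404999, strand -: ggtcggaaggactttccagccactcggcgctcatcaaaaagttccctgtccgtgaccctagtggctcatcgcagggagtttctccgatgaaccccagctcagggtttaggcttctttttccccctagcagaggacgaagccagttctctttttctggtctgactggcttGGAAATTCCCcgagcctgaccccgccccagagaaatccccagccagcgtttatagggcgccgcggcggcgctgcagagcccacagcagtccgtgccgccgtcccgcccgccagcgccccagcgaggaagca
NFKBIZ, chr3:101827740-101828039, strand +: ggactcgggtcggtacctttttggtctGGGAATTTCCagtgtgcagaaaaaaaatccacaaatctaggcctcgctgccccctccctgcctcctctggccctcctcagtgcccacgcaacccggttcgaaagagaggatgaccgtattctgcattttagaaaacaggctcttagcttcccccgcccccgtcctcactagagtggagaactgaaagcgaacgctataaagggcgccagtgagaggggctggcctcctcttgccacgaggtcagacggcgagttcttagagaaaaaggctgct
NFKBIZ, chr3:101849264-101849563, strand +: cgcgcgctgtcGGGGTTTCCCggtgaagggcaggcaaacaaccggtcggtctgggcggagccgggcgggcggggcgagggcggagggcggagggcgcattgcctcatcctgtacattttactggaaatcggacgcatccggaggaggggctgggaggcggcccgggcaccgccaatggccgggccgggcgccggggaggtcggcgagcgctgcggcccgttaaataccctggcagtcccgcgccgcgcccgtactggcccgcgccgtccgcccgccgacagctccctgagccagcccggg

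The table held a promoter for 7 of the 9 genes; RELB and NFKBIE had none. Of these 7 genes, 6 had at least 1 match, RELA being the exception at both of its 2 starts. Over all 35116 promoters of this length in the table, 11.3% held a match, and of the 15384 genes on the array with a promoter in the table, 2455 had at least 1. The match of NFKB1 began 49 bases before the start, in the first of its 2 annotated promoters, and reads GGGAATTTCC. The same 10 bases began 223 bases before the first start of NFKBIZ. REL had 2 overlapping matches beginning 47 and 46 bases before its start. TNFAIP3 carried 2 separate matches, beginning 67 and 55 bases before its start, and NFKBIA had 1, beginning 81 bases before. NFKB2, not shown, had 5 matches over 3 annotated starts, 2 of them overlapping, the most of any member. Yet NFKB2 was not among the genes lower with both treatments. A match is a run of letters, not a measured binding site.

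**Figure D1:**
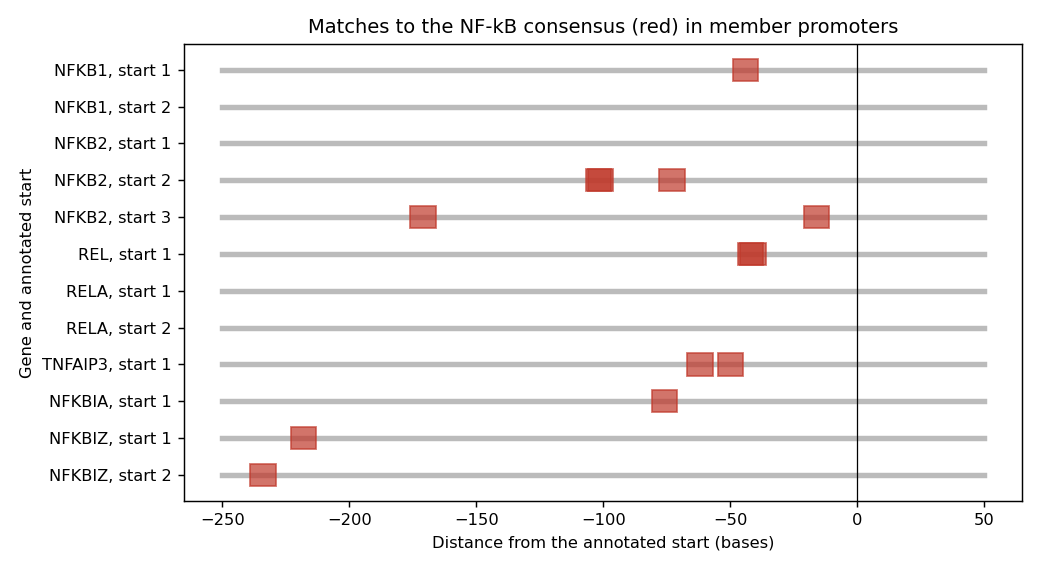
Matches to the NF-kB consensus (red boxes) along the 12 member promoters, by distance from the annotated start in bases; grey bars are the windows searched. Of the 12 windows, 8 hold a match, and neither RELA window does.

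Deposited values are distances, in log2 units, from a baseline of each probe set, so levels cannot be read or compared between genes. The log base was taken as 2, since no source names it. A gene's value is the median over its probe sets, and "lower" or "higher" means by at least 1.5-fold (0.585 log2 units). The array labelled vehicle stood apart over the whole series. The standard deviation over all probe sets was 0.12 with estradiol, 0.13 with ERα17p and 0.27 on that array. These spreads depend on the baseline, whereas probe set differences between arrays do not. Over the probe sets with 1 symbol, the standard deviation of the differences was 0.33 for estradiol minus vehicle and 0.29 for ERα17p minus vehicle. For estradiol minus ERα17p it was 0.19. RNA integrity itself cannot be read, since the 3′ and 5′ control probe sets are centred too, and only its shift between arrays can be compared. For the ACTB control the 3′ minus 5′ difference was 0.02 with estradiol, -0.04 with ERα17p and 0.30 on the array labelled vehicle. For the GAPDH control it was 0.01, -0.03 and 0.05 in the same order. Their part in the differences below was not tested, and fewer cells of a type and less RNA per cell cannot be told apart in such bulk RNA. Markers of SKBR3 and luminal epithelium, 7 genes with ERBB2, KRT8 and KRT18 among them, differed from the array labelled vehicle by -0.14 to 0.14 with estradiol and by -0.07 to 0.28 with ERα17p. For 13 markers of leukocytes, endothelium and fibroblasts the ranges were -0.20 to 0.42 and -0.22 to 0.45.

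**Figure D2:**
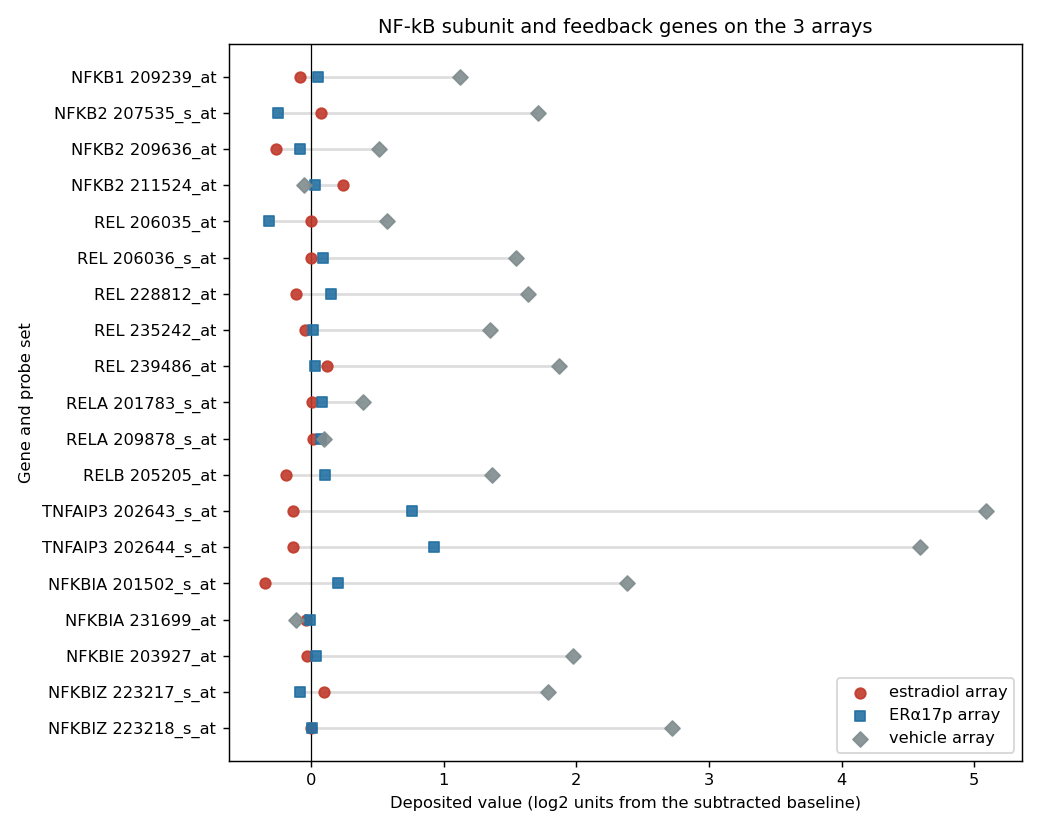
Deposited value of each of the 19 member probe sets (rows) on the estradiol array (red circles), the ERα17p array (blue squares) and the array labelled vehicle (grey diamonds), in log2 units from the subtracted baseline. The array labelled vehicle is the highest in 17 of the 19 rows, by most for TNFAIP3.

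Against the array labelled vehicle, 7 of the 9 genes were lower with estradiol and 8 of the 9 with ERα17p, and none was higher. Over all genes 2.93% were lower and 0.809% higher with estradiol, and 2.14% were lower and 0.582% higher with ERα17p. At 2-fold, 7 of the 9 were lower with either treatment, beside 0.895% and 0.738% of all genes. By probe set, 14 of 19 were lower with estradiol and 15 of 19 with ERα17p, beside 3.71% and 2.76% of all probe sets with 1 symbol. The median over the 9 genes was -1.55 with estradiol and -1.26 with ERα17p, beside 0.03 and 0.03 over all 19775 genes. Both comparisons share the array labelled vehicle, so they are not separate evidence. They were also used to choose the genes, and nothing is read from the counts. With the subtracted baseline in place of that array, no member was lower with either treatment, and TNFAIP3 was higher with ERα17p. By that measure hardly any gene was called: 0.0506% of all genes were lower with estradiol, 0.00506% were lower with ERα17p and 0.0657% were higher with ERα17p. Both treated arrays lay within 0.35 of the baseline at 17 of the 19 member probe sets. The arrays behind the baseline are not stated. At 7.28% of all probe sets the values of some pair of these arrays mirror each other around 0, so the baseline is their midpoint. The baseline is therefore not separate from these arrays, and nothing is read from these calls.

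Against the array labelled vehicle, the feedback genes TNFAIP3, NFKBIZ and NFKBIE held the widest gene differences of the members. NFKBIA, also a feedback gene, differed less than REL and RELB. TNFAIP3 was the widest of all members. Its probe set 202643_s_at had -0.14 on the estradiol array, 0.76 on the ERα17p array and 5.09 on the array labelled vehicle. Its other probe set, 202644_s_at, had -0.14, 0.93 and 4.59 in the same order. Both place the estradiol array just under the baseline, the ERα17p array above it and the array labelled vehicle far above both. As a gene, TNFAIP3 was 31.5-fold lower with estradiol than on the array labelled vehicle (-4.98 log2 units), the 6th lowest difference of all genes. With ERα17p it was 15.9-fold lower (-3.99), the 7th lowest. The gene lies on chromosome 6 at 137866349 to 137883312 (GRCh38.p14). Of the members that follow, NFKBIA lies on chromosome 14, NFKBIE on 6, NFKBIZ on 3, REL on 2, RELB on 19, NFKB1 on 4, NFKB2 on 10 and RELA on 11.

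NFKBIA encodes IkBα, the inhibitor that is degraded and then made anew within one round of signalling. Its probe set 201502_s_at had -0.35 on the estradiol array, 0.20 on the ERα17p array and 2.38 on the array labelled vehicle. The probe set 231699_at had -0.04, -0.01 and -0.11 in the same order. So the first placed the array labelled vehicle far above both treated arrays, by -2.73 with estradiol and -2.18 with ERα17p, while the second placed all 3 arrays within 0.11 of each other. The gene medians of -1.33 and -1.04 are the midpoint of a probe set that differed and one that hardly did. Among the 10523 genes with at least 2 probe sets, 99.9% had a narrower range between probe sets than NFKBIA in either comparison.

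NFKBIE encodes IkBε, an inhibitor known for a later response than that of IkBα. Its single probe set had -0.03 on the estradiol array, 0.03 on the ERα17p array and 1.97 on the array labelled vehicle. It was 4.02-fold lower with estradiol and 3.84-fold lower with ERα17p. The values of both treated arrays mirror each other around 0, to a tolerance of 1e-06. The same mirror was seen at 1 probe set of NFKBIZ, and at 7.28% of all probe sets some pair of the 3 arrays showed it. At such a probe set the subtracted baseline is the midpoint of the mirrored arrays.

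NFKBIZ encodes IkBζ, a nuclear IkB protein that helps switch on a second wave of NF-kB targets. Its probe set 223218_s_at had -0.00 on the estradiol array, 0.00 on the ERα17p array and 2.72 on the array labelled vehicle. Its probe set 223217_s_at had 0.10, -0.09 and 1.79. In both, the treated arrays lay together and the array labelled vehicle above them. The gene was 4.62-fold lower with estradiol (-2.21) and 4.91-fold lower with ERα17p (-2.30).

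Among the subunits, REL, RELB and NFKB1 were lower with both treatments and RELA with neither. REL encodes c-Rel, known best from lymphocytes, and was read by 5 probe sets, the most of any member. They ran from -0.12 to 0.12 on the estradiol array, from -0.32 to 0.15 on the ERα17p array and from 0.58 to 1.87 on the array labelled vehicle. In all 5 the array labelled vehicle was the highest. As a gene REL differed by -1.55 with estradiol (2.92-fold lower) and by -1.52 with ERα17p (2.86-fold lower). Probe set 206035_at had the narrowest difference, at -0.58 with estradiol, just short of 1.5-fold, and -0.89 with ERα17p.

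RELB encodes the partner of p52 in the non-canonical branch of the pathway. Its single probe set had -0.19 on the estradiol array, 0.11 on the ERα17p array and 1.36 on the array labelled vehicle. It was 2.93-fold lower with estradiol and 2.39-fold lower with ERα17p. NFKB1 encodes p105, the precursor of p50, and was read by 1 probe set too. It had -0.09 on the estradiol array, 0.05 on the ERα17p array and 1.13 on the array labelled vehicle. That made it 2.32-fold lower with estradiol (-1.21) and 2.11-fold lower with ERα17p (-1.08).

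NFKB2, which encodes p100, the precursor of p52 and itself an inhibitor of RelB, was read by 3 probe sets that did not behave alike. Probe set 207535_s_at had 0.08 on the estradiol array, -0.25 on the ERα17p array and 1.71 on the array labelled vehicle. Probe set 209636_at had -0.27, -0.08 and 0.51 in the same order, and 211524_at had 0.24, 0.03 and -0.06. The first therefore differed by -1.63 with estradiol and -1.96 with ERα17p, the second by -0.78 and -0.59, and the third by 0.30 and 0.08. The gene medians differed by -0.43 with estradiol and by -0.59 with ERα17p, so that NFKB2 was called lower with the peptide only. The estradiol value depends on how probe sets are joined, since 207535_s_at is the median on the estradiol array and 209636_at on the other arrays. Taking the difference within each probe set first, an alternative chosen after seeing the data, gave -0.78 with estradiol and the same -0.59 with ERα17p. By that measure 8 of the 9 genes were lower with each treatment, beside 2.93% of all genes with estradiol and 2.09% with ERα17p.

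RELA encodes p65, the subunit with the main activating domain of the canonical dimer. Its probe set 201783_s_at had 0.01 on the estradiol array, 0.08 on the ERα17p array and 0.39 on the array labelled vehicle. Its probe set 209878_s_at had 0.01, 0.07 and 0.10. Here the 3 arrays lay closer together than for any other member gene. The gene differed by -0.23 with estradiol and by -0.17 with ERα17p, which 2561 and 3137 genes undercut.

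**Figure D3:**
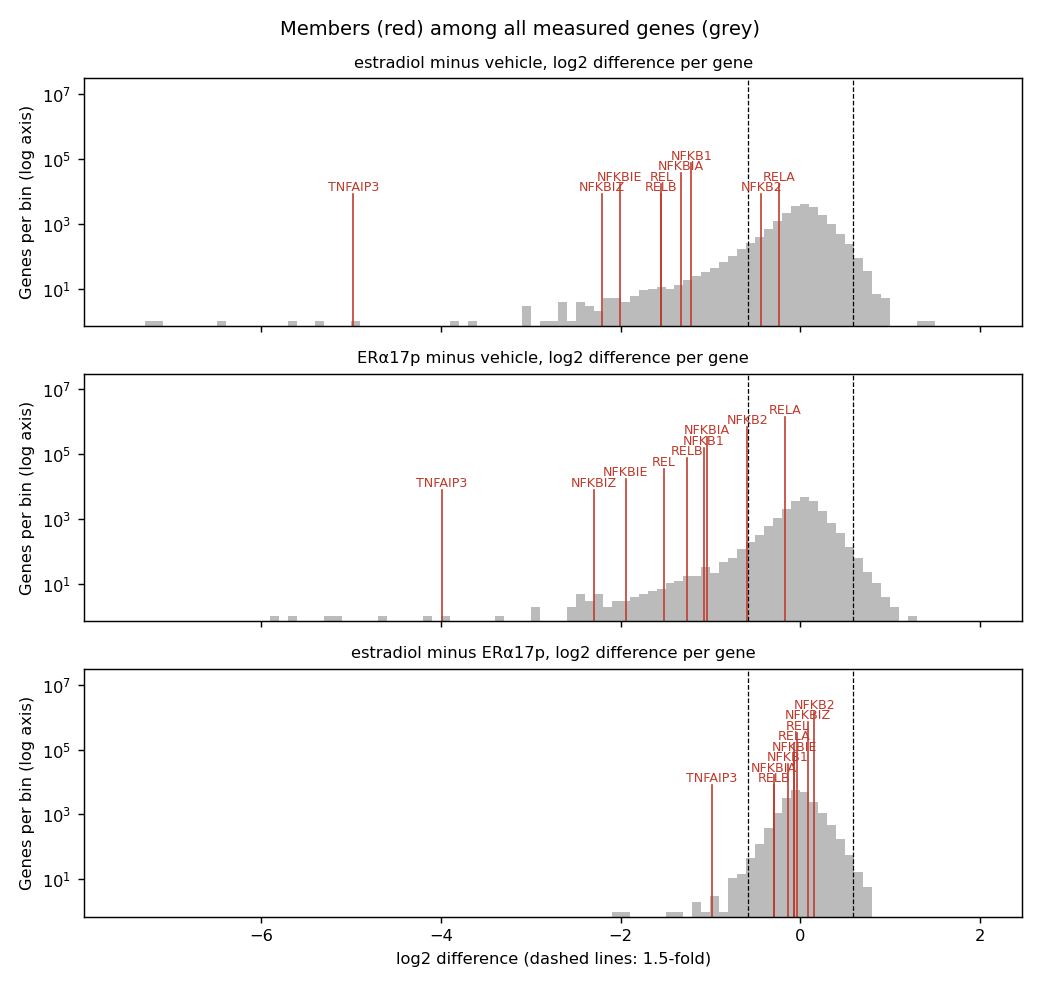
Log2 difference of each of the 19775 genes (grey histogram, bins of 0.1, log axis) and of the 9 members (red lines) for estradiol minus vehicle (top), for ERα17p minus vehicle (middle) and for estradiol minus ERα17p (bottom); dashed lines mark 1.5-fold, and the heights of the red lines only separate the names. In the upper and middle panels the members reach from RELA, inside the dashed lines, to TNFAIP3 at -4.98 and -3.99, and in the lowest panel only TNFAIP3 passes 1.5-fold.

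Estradiol was next set directly against ERα17p, a comparison that leaves out the array labelled vehicle. Of the 9 genes 1 was lower on the estradiol array and 0 were higher, with 0.207% of all genes lower and 0.147% higher. The 1 gene was TNFAIP3, which differed by -0.98 (1.98-fold), the 8th lowest difference of all genes. Its probe sets gave -0.90 and -1.07, the only 2 of the 19 that passed 1.5-fold, as 0.29% of all probe sets with 1 symbol did on that side. No member reached 2-fold as a gene, and 0.0354% of all genes did on the lower side. The next widest probe set was 201502_s_at of NFKBIA, at -0.55, just short of 1.5-fold, whereas the other probe set of that gene had -0.03.

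The remaining members differed little between both treated arrays. As genes, RELB and NFKBIA had -0.29 each and NFKB1 had -0.13. NFKBIE, RELA and REL lay at -0.07, -0.07 and -0.03. On the other side of 0 stood NFKBIZ at 0.09 and NFKB2 at 0.16. The median over the 9 genes was -0.07, beside -0.01 over all genes. Of the 19 probe sets, 14 were lower on the estradiol array by any amount, beside 22443 of 41091 over all probe sets with 1 symbol.

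Other parts of the pathway were described with gene lists, which were chosen with earlier results of these data known. Their calls stand beside 2.93% of all genes lower with estradiol and 2.14% with ERα17p. The kinases and their scaffolds, 10 genes with the IkB kinase subunits CHUK, IKBKB and IKBKG among them, had a median of -0.28 with estradiol and -0.15 with ERα17p against the array labelled vehicle. TBK1, an IkB kinase relative of the interferon pathway, was the only one lower with estradiol (-0.67), and it had -0.53 with ERα17p. Of 12 measured receptor adaptors and ubiquitin ligases, TRAF3, a brake on the non-canonical branch, was lower with both treatments, at -0.64 and -0.69, and none was higher. Their medians were 0.00 and -0.01. Of 12 other negative regulators, CYLD, a deubiquitinase that opposes the pathway, was lower with both, at -0.70 and -0.61. The 2 other measured IkB genes, NFKBIB and NFKBID, had gene values of -0.06 and -0.02 with estradiol and of -0.38 and 0.00 with ERα17p. BIRC2, the closest relative of BIRC3, was at -0.38 and -0.34, and none of the 6 measured genes of that family passed 1.5-fold.

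Target genes of the pathway were described in the same way. Of 14 measured cytokine and adhesion targets, 10 were lower with estradiol and 10 with ERα17p, with medians of -2.26 and -1.83. Over all genes 2.93% were lower with estradiol and 2.14% with ERα17p. IL1B (-0.07 and 0.12), VCAM1 (0.09 and -0.19), LTB (-0.10 and -0.19) and CXCL2 (-0.11 and -0.02) as genes passed 1.5-fold with neither treatment. For CXCL2 the probe sets did not behave alike: 209774_x_at had -4.43 and -4.37, and the others lay between -0.11 and 0.16. Among the lower target genes were CXCL8, CCL20 and CXCL1, all genes of attractants for leukocytes. CXCL8 had -7.24 with estradiol and -5.28 with ERα17p, CCL20 had -7.19 and -5.83, and CXCL1 had -6.41 and -5.67. SELE, TNF and CXCL3 had -5.66, -5.38 and -3.90 with estradiol, and -5.11, -4.65 and -4.13 with ERα17p. Of 7 survival and stress targets, 4 were lower with each treatment, while BCL2L1, CFLAR and XIAP as genes passed 1.5-fold with neither. The 14 probe sets of CFLAR ran from -0.95 to 0.14 with estradiol and from -1.57 to 0.16 with ERα17p. GADD45B, a growth arrest gene, had -1.76 with estradiol and -1.35 with ERα17p. SOD2, the mitochondrial superoxide dismutase gene, had -1.72 and -1.22, and IER3 had -1.06 and -1.15. BCL2A1, a relative of BCL2 that prolongs survival, had -0.74 and -0.81. Between estradiol and ERα17p, 5 of the 61 measured list genes were lower with estradiol and 0 higher. Of all genes, 0.207% were lower and 0.147% higher. All 5 list genes were cytokine targets: CXCL8 (-1.96), CCL20 (-1.35), CXCL1 (-0.74), TNF (-0.73) and CCL2 (-0.71).

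**Figure D4:**
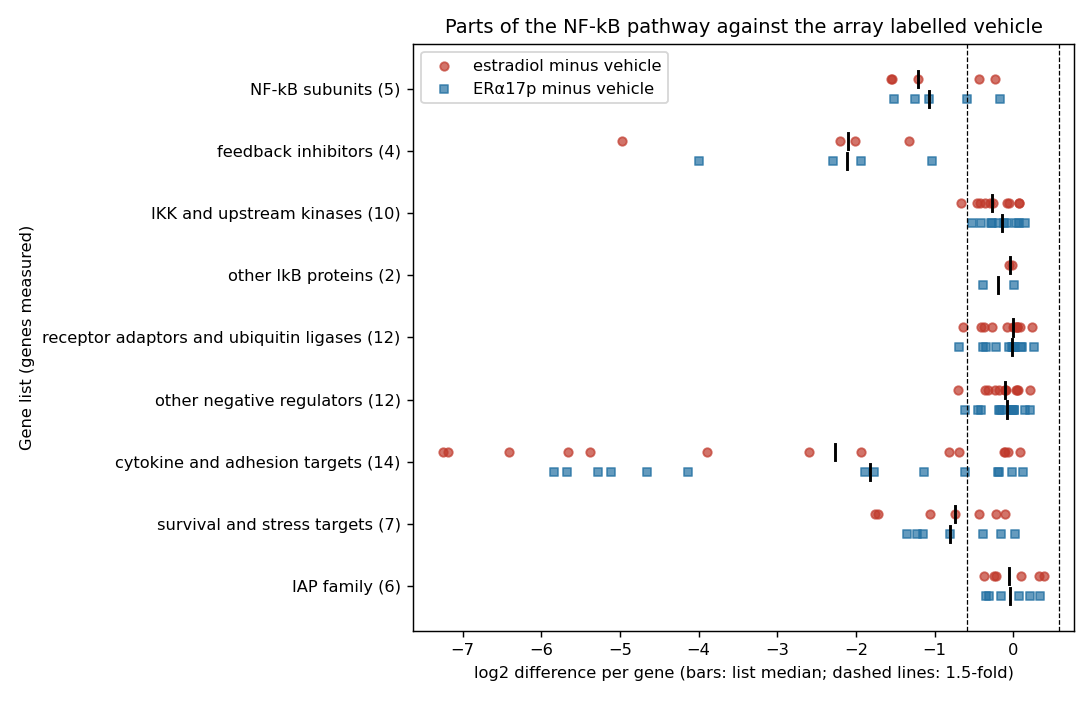
Log2 differences from the array labelled vehicle for the genes of each list, with estradiol (red circles) and with ERα17p (blue squares); black bars are list medians and dashed lines mark 1.5-fold. The feedback genes, labelled feedback inhibitors in the figure (medians -2.11 and -2.12), and the cytokine and adhesion targets reach farthest to the left. The kinases (medians -0.28 and -0.15), adaptors (0.00 and -0.01) and other negative regulators (-0.10 and -0.09) lie closer to 0, each with at most 1 gene past 1.5-fold per treatment.

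For the 7 members lower with both treatments, the genes with the most similar values over the 3 arrays were listed by Euclidean distance between gene values. Likeness over 3 arrays says nothing of shared control. TNFAIP3 lay closest to TNF (distance 0.50) and SELE (0.85). NFKBIE lay closest to IRS2 (0.12) and to ICAM1, an adhesion molecule gene (0.12). The ICAM1 value is the median of 3 unlike probe sets. Against the array labelled vehicle they ran from -3.99 to -0.18 with estradiol and from -3.33 to 0.11 with ERα17p. NFKBIZ lay closest to ZFP36 (0.11), which encodes an mRNA decay factor, and to MAFF (0.13), a small MAF transcription factor gene. NFKB1 lay closest to the transcription factor genes KLF6 (0.02) and CEBPB (0.04). REL was closest to SIX4 (0.08) and IER5 (0.09), RELB to ZNF670 (0.05) and ZSWIM6 (0.06), and NFKBIA to NOCT (0.08) and, among the members themselves, NFKB1 (0.12).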

How the data were processed

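RNA of 3 SKBR3 samples was read on 1 Affymetrix array each, and groups came from the sample labels. The authors used RMA, per the submitters' processing notes; no version is named there. The deposited values were taken as log2, and each probe set was taken as centred on a baseline. This reading rests on the mirrored pairs of arrays at 7.28% of all probe sets. Column medians were -0.00, 0.00 and -0.02 for estradiol, ERα17p and vehicle, which alone would not show centring by probe set. The centring keeps differences between arrays and removes levels, so that signal over background is unknown.

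Of 54675 probe sets, 41091 had 1 gene symbol in the platform annotation, 1801 had several, 11721 were unnamed here and 62 were controls. Entrez IDs matched GRCh38.p14 for 41037, and 0 symbols changed. Named genes were all members, up to 6 list genes past 1.5-fold per list, and the 2 nearest genes in pattern for each member lower with both treatments. A few others were named after their values were seen. The members and lists were chosen with earlier results of these data known. No filter was set and no test was run. Gene summaries and calls were tested on simulated data. Alternatives concerned probe set summaries, scaling, thresholds and the comparator. Protein sequences were not used here. Calculations used Python 3.11.15, pandas 2.3.3 and numpy 2.4.6.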

Additional observations from a re-analysis of the deposited data

How the results depend on the processing

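Leaving out probe sets whose suffix marks possible reads from more than 1 transcript, 6 of the members could be measured, and TNFAIP3, NFKBIZ and RELA dropped out. NFKBIA was no longer called with either treatment, nor NFKB2 with ERα17p. Then 4 of 6 were lower with estradiol, 4 of 6 with ERα17p, and 0 of 6 on the estradiol array against the ERα17p array. The share of all genes called under this filter was not computed, so nothing is read from these counts. Counted by probe set, 14 of 19 were lower with estradiol, 15 of 19 with ERα17p and 2 of 19 in the direct comparison, where both belong to TNFAIP3. At 2-fold, 7 of the 9 genes were lower with either treatment, and 0 in the direct comparison, while list genes lower with estradiol numbered 11 in place of 17, and 2 in place of 5 in the direct comparison. Of all genes, 0.895% were lower at 2-fold with estradiol, 0.738% with ERα17p and 0.0354% in the direct comparison. With the baseline in place of the array labelled vehicle, 0 members were lower with estradiol (median -0.034) and 0 with ERα17p (median 0.049, a change of sign), beside 10 and 1 of all 19775 genes. That baseline is not separate from the arrays compared here, as the mirrored pairs show. Against the array labelled vehicle, the highest probe set of NFKBIA was 0.073 with estradiol and 0.106 with ERα17p, and that of NFKB2 was 0.296 with estradiol, where the gene was not called, and 0.084 with ERα17p, again changes of sign. The mean over probe sets, centring each array on its median, and differences within probe sets (the last chosen after seeing the data) kept all member counts within 1 of those given. The causes were not tested. No paired analysis was possible because each group had 1 array. Leaving out an array was not possible either, for the same reason.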

Other observations

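Some genes near the NF-kB machinery were read by a single probe set that differed while the others did not, so that their gene values hide it. These were named after their values were seen. NFKBID, which encodes another nuclear IkB protein, had -1.78 with estradiol and -1.90 with ERα17p against the array labelled vehicle at probe set 230052_s_at. Its other 2 probe sets lay between -0.07 and 0.05 in both comparisons. IRAK2, a kinase of interleukin-1 and Toll-like receptor signalling, had -2.54 and -2.34 at 231779_at, and between -0.27 and -0.13 at its other 2. The chemokine gene CXCL2 had -4.43 and -4.37 at 209774_x_at, a probe set whose suffix says that it can take up other transcripts, and between -0.11 and 0.16 at its other 2. All 7 probe sets of CYLD lay below 0 in both comparisons, from -1.69 to -0.03 with estradiol and from -1.43 to -0.14 with ERα17p.

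The measured protein-coding genes next to each of the 9 members on the chromosome, 18 in all, did not pass 1.5-fold in any comparison. Few genes did at all: 2.93% of all genes were lower and 0.809% higher with estradiol. With ERα17p the shares were 2.14% and 0.582%, and between both treatments 0.207% and 0.147%, so nothing is read from this. The 18 neighbours ran from -0.53 to 0.24 with estradiol, from -0.48 to 0.18 with ERα17p, and from -0.20 to 0.25 between both treatments. PUS10, 8.61 kb from REL, had the lowest value with estradiol (-0.53). HSP90AB1, 4.28 kb from NFKBIE, had -0.11.

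The NF-kB consensus was matched in a promoter of 90 of the 459 genes lower with estradiol that had one in the table, of 76 of the 338 lower with ERα17p, and of 2455 of the 15384 genes on the array. No test was made of these shares.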
